A study of Mus musculus with 6 samples.

Results

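Vomeronasal receptors were described across lung arrays of Cd-treated and control mice. They are G protein-coupled receptors named for the vomeronasal organ of the nose, and they fall into the Vmn1r family, whose coding region lies in a single exon, and the Vmn2r family, whose coding region is split over several exons. A gene was taken as a member where a probe set of the array was paired with exactly 1 symbol made of Vmn1r or Vmn2r and a number, and where a gene had several such probe sets the brightest of them, by its mean of the 6 arrays, was used. This gave 285 of the 22180 genes with 1 symbol on the array, of which 176 were Vmn1r genes and 109 were Vmn2r genes. They came from 292 probe sets, 5 members had more than 1 probe set, and all 285 matched an entry in RefSeq, which lists 1 of them as a pseudogene. In RefSeq the median span was 925.5 bases for Vmn1r genes, with 144 of 176 spanning 1100 bases or less, and 25264 bases for Vmn2r genes, the shortest of which spanned 8397 bases.

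The Cd-treated group was male C57Bl6 mice given CdCl2 at 10 mg/L in their drinking water for 20 weeks, beginning at 8 weeks of age, and the control group was male C57Bl6 mice of the same age, 28 weeks at the end, given 0 mg/L. Each group had 3 arrays, which the labels call biological replicates. RNA was taken from lung tissue frozen at collection, amplified and hybridised to Affymetrix Mouse Gene ST 2.0 arrays, and the values are log2 RMA values, a background-corrected and normalized log2 intensity for each probe set. Whole lung tissue holds many cell types, so that a lower value from fewer cells of a type and one from less RNA per cell cannot be told apart.

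In the vomeronasal organ each sensory neuron expresses one or a few receptor genes out of the whole repertoire. Neurons of the apical layer use V1R receptors with the G protein subunit Gnai2 and detect mostly small molecules such as sulfated steroids, while neurons of the basal layer use V2R receptors with Gnao1 and detect mostly peptides and proteins. V2R receptors are class C receptors with a long extracellular domain, relatives of the calcium-sensing and metabotropic glutamate receptors, and both kinds of neuron signal through the channel Trpc2. The receptor genes lie in tandem clusters of close copies, which matters on an array because a probe can match several genes.

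The closeness of the copies shows in the sequences around their starts, taken from RefSeq on build GRCm38.p6 as windows of 250 bases before and 50 after the start of each gene. Of the 285 members, 258 had such a window. The first 3 windows belong to Vmn1r genes whose signal was high and varied between arrays, and capitals mark the 9 of 300 positions at which they are not all alike.
Vmn1r127, chr7:21319812-21320111, minus strand: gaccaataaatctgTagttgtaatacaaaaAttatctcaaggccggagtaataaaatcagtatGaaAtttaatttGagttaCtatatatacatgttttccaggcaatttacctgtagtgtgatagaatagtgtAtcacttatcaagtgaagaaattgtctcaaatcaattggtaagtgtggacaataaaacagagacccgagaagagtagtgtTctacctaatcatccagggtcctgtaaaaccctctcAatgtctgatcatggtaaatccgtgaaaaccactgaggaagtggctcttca
Vmn1r94, chr7:20168328-20168627, minus strand: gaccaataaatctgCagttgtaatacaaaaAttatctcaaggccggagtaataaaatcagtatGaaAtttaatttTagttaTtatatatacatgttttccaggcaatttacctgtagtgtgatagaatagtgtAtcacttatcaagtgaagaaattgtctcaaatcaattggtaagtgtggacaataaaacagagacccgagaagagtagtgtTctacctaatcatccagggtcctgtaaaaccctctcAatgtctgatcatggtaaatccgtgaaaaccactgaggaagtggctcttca
Vmn1r159, chr7:22843556-22843855, minus strand: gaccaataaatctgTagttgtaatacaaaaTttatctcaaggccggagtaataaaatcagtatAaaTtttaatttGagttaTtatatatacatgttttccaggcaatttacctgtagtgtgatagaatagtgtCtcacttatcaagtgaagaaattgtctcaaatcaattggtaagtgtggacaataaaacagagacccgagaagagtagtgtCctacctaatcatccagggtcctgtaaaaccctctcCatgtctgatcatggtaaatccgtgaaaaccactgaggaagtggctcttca
The windows of Vmn1r127 and Vmn1r94 differed at 3 positions, those of Vmn1r127 and Vmn1r159 at 7, and those of Vmn1r94 and Vmn1r159 at 8. Among Vmn1r genes with a window, 53 of 154 had another member of the family whose window was at least 90% identical to theirs, and among Vmn2r genes 58 of 104 did.

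For the Vmn2r family, the windows of Vmn2r33 and Vmn2r113, the pair with the largest SD over the 6 arrays in that family, were 68.7% identical. They are not each other's closest copies. The nearest window was that of Vmn2r44 for Vmn2r33 (99.3% identical) and that of Vmn2r117 for Vmn2r113 (86.0%). Capitals mark the longest stretch that the windows of Vmn2r33 and Vmn2r113 shared, 23 bases long and beginning at position 242 of both.
Vmn2r33, chr7:7566737-7567036, minus strand: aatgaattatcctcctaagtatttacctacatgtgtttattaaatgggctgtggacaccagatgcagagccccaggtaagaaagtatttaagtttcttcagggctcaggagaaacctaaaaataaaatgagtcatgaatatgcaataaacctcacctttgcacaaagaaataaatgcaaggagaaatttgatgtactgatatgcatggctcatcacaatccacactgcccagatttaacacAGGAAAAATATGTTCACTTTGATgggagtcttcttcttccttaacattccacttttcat
Vmn2r113, chr17:22942934-22943233, plus strand: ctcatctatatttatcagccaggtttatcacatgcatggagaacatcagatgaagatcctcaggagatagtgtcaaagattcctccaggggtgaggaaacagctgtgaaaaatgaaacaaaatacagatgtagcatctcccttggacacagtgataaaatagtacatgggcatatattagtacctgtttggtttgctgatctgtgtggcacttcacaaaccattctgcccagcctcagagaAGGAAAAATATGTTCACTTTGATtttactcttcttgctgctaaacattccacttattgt
Vmn1r233, the member with the highest signal, and Vmn2r93, the member with the smallest p between the groups, are shown with the start codon in capitals.
Vmn1r233, chr17:20994637-20994936, minus strand: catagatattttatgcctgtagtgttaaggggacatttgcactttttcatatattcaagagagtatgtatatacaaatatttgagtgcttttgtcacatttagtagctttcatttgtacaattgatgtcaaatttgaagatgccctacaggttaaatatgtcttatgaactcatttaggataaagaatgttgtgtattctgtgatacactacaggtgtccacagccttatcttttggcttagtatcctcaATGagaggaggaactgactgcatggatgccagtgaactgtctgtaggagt
Vmn2r93, chr17:18298031-18298330, plus strand: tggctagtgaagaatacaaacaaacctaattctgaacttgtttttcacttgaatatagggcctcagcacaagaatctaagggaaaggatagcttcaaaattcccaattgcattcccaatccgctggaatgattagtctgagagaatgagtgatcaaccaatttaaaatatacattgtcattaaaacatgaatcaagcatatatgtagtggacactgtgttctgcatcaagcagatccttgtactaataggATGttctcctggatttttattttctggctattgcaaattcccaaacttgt
In 131 of 154 Vmn1r windows and 91 of 104 Vmn2r windows the RefSeq gene start was an ATG, against 1603 of 26767 windows of all other genes, so that for most members the 250 bases lie before the coding region and not before a known site of transcription. The median GC content was 35.7% for Vmn1r windows, 38.5% for Vmn2r windows and 53.0% for all other genes.

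Across the 6 arrays the medians of all 41345 probe sets lay between 4.86 and 5.12, the lower quartiles between 3.77 and 4.20, and the correlations between arrays between 0.82 and 0.971. The summed lung markers averaged 9.37 to 10.21 on every array, and 6 of 8 markers of vomeronasal and olfactory neurons were measured, with means of 4.23 to 4.45. Control replicate 3 stood apart by 6 of 7 skeletal muscle markers, all but Myh2, and the mean of the 7 was 8.21 there and 4.66 to 5.04 on the other arrays. Of 6 squamous epithelium markers measured of 7, Krt14, Krt13 and Krt4 were highest there while Krt6a, Sprr1a and Sprr3 were not, and the mean of the 6 was 5.76 there and 4.53 to 4.73 on the others. The mean of 8 of 9 spermatid and multicopy sex chromosome genes was 5.38, 6.64 and 7.49 on Cd replicates 1, 2 and 3, against 6.59, 6.63 and 4.48 on control replicates 1, 2 and 3. The mean of 4 cardiac muscle markers was 6.65, 8.02 and 7.28 in Cd-treated lungs, against 9.44, 8.41 and 8.60 in control lungs. Of the 4, 3 were lower at an unadjusted limma p under 0.05, against 0.622% of all genes. These 3, Nppa, Sln and Myl7, each had a limma adjusted p of 0.992. None of the 3 red cell markers had a probe set of its own.

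Most vomeronasal receptors lay at the bottom of the array's range. Of the 285 members, 193 fell under the array's lower quartile on every one of the 6 arrays, 115 of them Vmn1r genes (65.3% of the family) and 78 Vmn2r genes (71.6%). The median level was 3.08 for Vmn1r genes and 2.80 for Vmn2r genes, against 5.19 for all genes with 1 symbol. Above the array median on all 6 arrays were 11 Vmn1r and 4 Vmn2r genes, and 13 members had a mean over 6, of which 11 were Vmn1r genes. Probe sets differ in how strongly they bind, so that these levels place a probe set on the array and do not rank the transcripts.

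**Figure D1:**
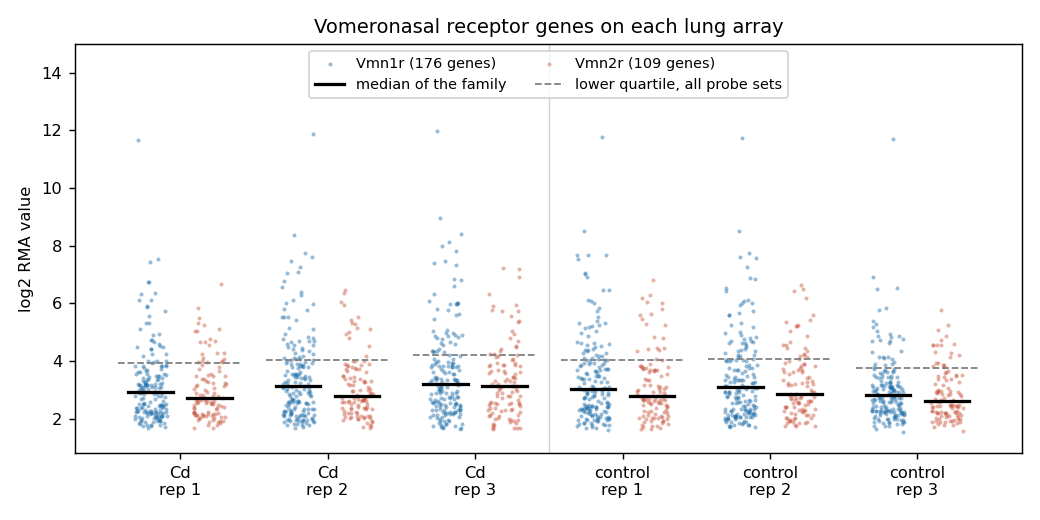
Log2 RMA value of each Vmn1r (blue) and Vmn2r (red) gene on each array, Cd-treated replicates left and control replicates right, with the family's median (black bar) and the lower quartile of all probe sets (dashed line). Both medians lie below the lower quartile on each of the 6 arrays, and the single points near 12 are Vmn1r233.

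The Vmn1r genes, with a single coding exon, were compared with the multi-exon Vmn2r genes on each array. The mean of the 176 Vmn1r genes was 3.21, 3.50 and 3.61 on Cd replicates 1, 2 and 3, against 3.46, 3.46 and 3.06 on control replicates 1, 2 and 3. The mean of the 109 Vmn2r genes was 3.03, 3.12 and 3.36 in Cd-treated lungs, against 3.15, 3.20 and 2.87 in control lungs. Both families were lowest on control replicate 3 and highest on Cd replicate 3, and the ranges of the groups overlapped in both.

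The mean of Vmn1r minus the mean of Vmn2r was 0.18, 0.38 and 0.25 in Cd-treated lungs, against 0.32, 0.26 and 0.19 in control lungs. Vmn1r was thus the higher family on all 6 arrays, by 0.27 ± 0.10 in Cd-treated lungs and 0.26 ± 0.06 in control lungs (SD, n = 3 each). The Cd-treated minus control difference of these values was 0.02, less than the spread between replicates. By medians in place of means, Vmn1r minus Vmn2r was 0.21, 0.33 and 0.09 in Cd-treated lungs, against 0.25, 0.24 and 0.20 in control lungs.

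The distance between the families was wider over members whose symbol also stands in a probe set that the annotation pairs with several symbols, here called shared probe sets. These were 27 Vmn1r genes and 20 Vmn2r genes, and their own 1-symbol probe sets are the ones measured. Over them, Vmn1r minus Vmn2r was 0.74, 1.31 and 1.07 in Cd-treated lungs, against 1.18, 1.24 and 0.63 in control lungs. Over the 149 Vmn1r and 89 Vmn2r genes without such an entry it was 0.09, 0.22 and 0.13 in Cd-treated lungs, against 0.18, 0.09 and 0.12 in control lungs. The sign was the same on all 6 arrays in both classes.

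Few members differed between the groups gene by gene. By limma's moderated test, 1 of the 285 members (0.351%) had an unadjusted p under 0.05, against 1.19% of all genes with 1 symbol. That member, Vmn2r93, was lower in Cd-treated lungs, where the same direction held for 0.622% of all genes and the opposite for 0.564%. Over all 41345 probe sets the unadjusted count was 831 (2.01%) and the count at an adjusted p under 0.05 was 0, the smallest limma adjusted p being 0.992 for members and for all probe sets alike. With 3 arrays against 3, the exact permutation test of a single gene cannot give a two-sided p below 0.1.

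The groups did not overlap in 15 members (5.26%), 8 with every Cd-treated array above every control array and 7 below, against 7.14% of all genes, 3.81% above and 3.33% below. For Vmn1r the count was 3 above and 4 below (3.98% of the family) and for Vmn2r it was 5 above and 3 below (7.34%). The share in Vmn1r was under that of all genes and the share in Vmn2r close to it, so that neither is a result about the receptors. The members above were Vmn1r50, Vmn1r61, Vmn1r76, Vmn2r38, Vmn2r59, Vmn2r69, Vmn2r89 and Vmn2r129, with log2 fold changes, Cd-treated minus control, of 0.09 to 0.56. Those below were Vmn1r27, Vmn1r33, Vmn1r172, Vmn1r179, Vmn2r93, Vmn2r97 and Vmn2r106, with log2 fold changes of -0.49 to -0.07.

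As whole families, Vmn1r and Vmn2r leaned slightly higher in Cd-treated lungs. The mean log2 fold change was 0.11 for Vmn1r (median 0.08, middle range from the lower to the upper quartile -0.04 to 0.26, extremes -0.46 and 0.82) and 0.10 for Vmn2r (median 0.07, quartiles -0.07 and 0.29, extremes -0.49 and 0.59). Positive values were found for 113 of 176 Vmn1r genes and 70 of 109 Vmn2r genes, 64.2% of each family, against 47.2% of all genes, whose median was -0.02. Among the 3949 genes of any kind whose mean was under the lower quartile of all probe sets, the median was 0.08 and 65.2% were positive, close to the families. These genes include the members that lie under that quartile. The 39 Vmn1r and 18 Vmn2r genes not under it leaned further, with mean log2 fold changes of 0.25 and 0.23, and were set beside no genes of like level.

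The lean of the families rested on single arrays. Without control replicate 3 the mean log2 fold change was -0.02 for Vmn1r and -0.004 for Vmn2r, and without Cd replicate 3 it was 0.03 for Vmn1r and 0.004 for Vmn2r. Control replicate 3 was the lowest of the 6 arrays for 69 Vmn1r genes (39.2%) and 48 Vmn2r genes (44.0%), against 27% of all genes and 39.1% of genes under the lower quartile. Cd replicate 3 was the highest array for 70 Vmn1r genes (39.8%) and 38 Vmn2r genes (34.9%), against 23.4% of all genes and 38.4% of genes under the lower quartile. The 6 muscle markers and the keratins Krt4, Krt13 and Krt14 that were highest on control replicate 3 set the same array apart, and their part in these values was not tested.

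**Figure D2:**
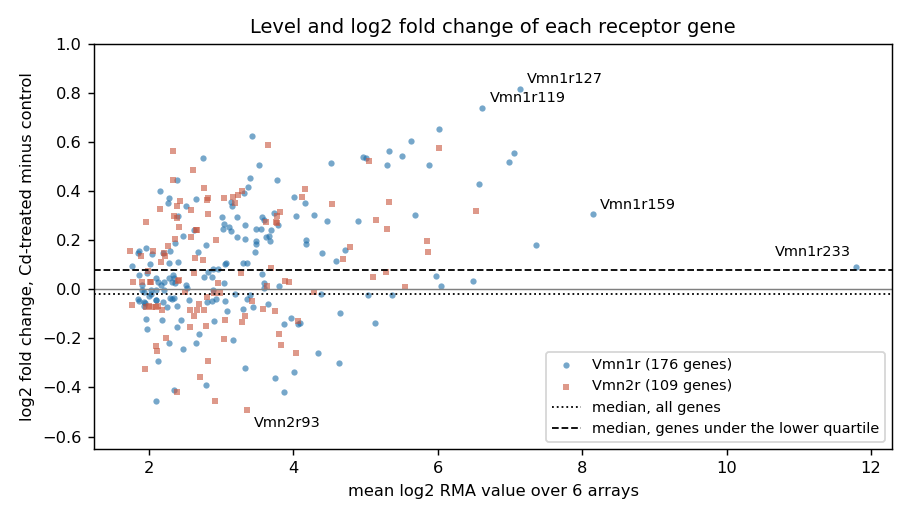
Log2 fold change, Cd-treated minus control, of each Vmn1r (circles) and Vmn2r gene (squares) against its mean log2 RMA value over 6 arrays, with the medians of all genes (-0.02, dotted) and of genes under the lower quartile (0.08, dashed). Most members lie between 2 and 4 on the level axis and on both sides of 0, and Vmn2r93 at the bottom (-0.49) is the member with an unadjusted p under 0.05.

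Vmn2r93, a V2R receptor gene of the largest Vmn2r cluster, was at 3.16, 3.09 and 3.07 in Cd-treated lungs, against 3.62, 3.68 and 3.50 in control lungs. Each Cd-treated array was below each control array, the spread within each group was small, and all values were under the lower quartile of their array. Its log2 fold change of -0.49 had a standard error of 0.17 (limma p = 0.0227, adjusted p = 0.992, exact permutation p = 0.1). Leaving out Cd replicate 2, Cd replicate 3, control replicate 1 or control replicate 2 took its limma p over 0.05, to values between 0.055 and 0.0691.

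The next smallest p in that family belonged to Vmn2r59, at 2.99, 2.98 and 2.93 in Cd-treated lungs, against 2.59, 2.67 and 2.39 in control lungs. Its groups did not overlap either, with a log2 fold change of 0.41, a standard error of 0.18 and a limma p of 0.0504. Vmn2r69 was at 2.24, 2.33 and 3.29 in Cd-treated lungs, against 2.02, 2.22 and 1.92 in control lungs, a difference carried mostly by Cd replicate 3 (log2 fold change 0.56, limma p = 0.112, exact permutation p = 0.1).

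The other Vmn2r genes in this range overlapped between the groups. Vmn2r110 was at 2.50, 3.03 and 2.53 in Cd-treated lungs, against 2.82, 3.33 and 3.27 in control lungs (log2 fold change -0.46, limma p = 0.102, exact permutation p = 0.2). Vmn2r67 was at 2.90, 2.38 and 2.38 in Cd-treated lungs, against 2.02, 2.40 and 1.89 in control lungs (log2 fold change 0.45, limma p = 0.105, exact permutation p = 0.3). In both, arrays of one group lay within the range of the other. Vmn2r83 was at 3.23, 3.67 and 3.57 in Cd-treated lungs, against 3.36, 2.93 and 2.97 in control lungs (log2 fold change 0.40, limma p = 0.106, exact permutation p = 0.2), with control replicate 1 inside the Cd-treated range.

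In the Vmn1r family no member had an unadjusted p under 0.05. Vmn1r172 came nearest, at 2.04, 2.24 and 2.14 in Cd-treated lungs, against 2.57, 2.43 and 2.65 in control lungs. Its groups did not overlap, and its log2 fold change of -0.41 had a standard error of 0.18 (limma p = 0.0536, adjusted p = 0.992, exact permutation p = 0.1). Vmn1r45, of the V1R genes in the cluster Vmn1r40 to Vmn1r54, was at 3.64, 3.26 and 3.64 in Cd-treated lungs, against 3.03, 3.28 and 3.06 in control lungs (log2 fold change 0.39, limma p = 0.0895, exact permutation p = 0.2), with Cd replicate 2 under control replicate 2.

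Further Vmn1r genes, of higher signal, pointed upward with overlap between the groups. Vmn1r176 was at 5.32, 5.52 and 5.98 in Cd-treated lungs, against 5.52, 4.85 and 4.77 in control lungs (log2 fold change 0.56, limma p = 0.0883, exact permutation p = 0.2). Vmn1r225 was at 5.11, 5.53 and 6.0 in Cd-treated lungs, against 5.22, 5.20 and 4.70 in control lungs (log2 fold change 0.51, limma p = 0.12, exact permutation p = 0.3). Both had Cd replicate 1 within the control range and Cd replicate 3 as the highest array. Vmn1r44 was at 5.31, 6.0 and 6.0 in Cd-treated lungs, against 5.31, 5.66 and 4.71 in control lungs (log2 fold change 0.54, limma p = 0.128, exact permutation p = 0.2). In Vmn1r176, Vmn1r225 and Vmn1r44 alike, control replicate 3 was the lowest array and Cd replicate 3 the highest.

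**Figure D3:**
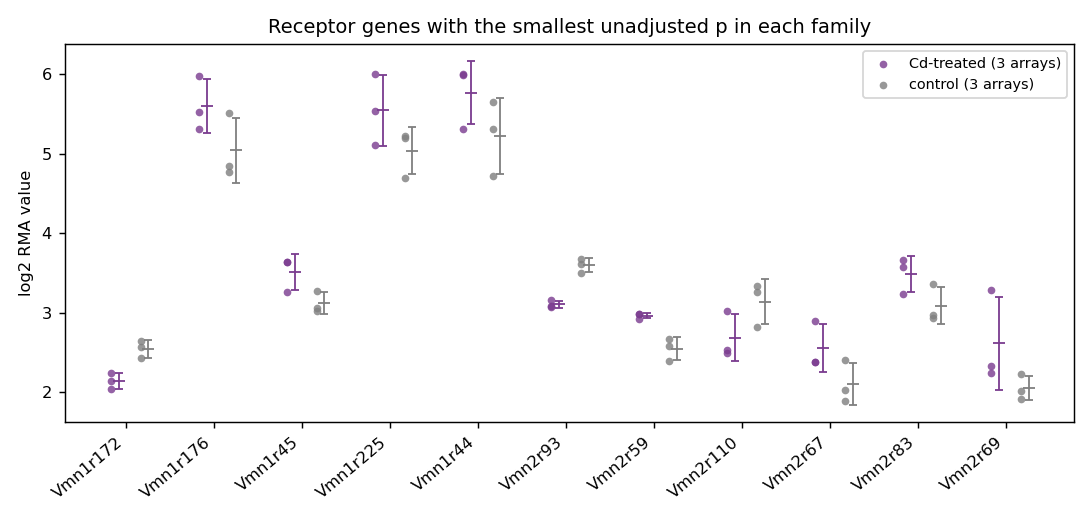
Log2 RMA values of the 5 Vmn1r and 6 Vmn2r genes with the smallest unadjusted limma p in their family, Cd-treated arrays (purple) left of control arrays (grey), with the mean and SD of 3 arrays beside the points. The groups do not overlap in Vmn1r172, Vmn2r93, Vmn2r59 and Vmn2r69.

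The members with high signal were few. Vmn1r233, which RefSeq lists in the V1rf clade, was at 11.67, 11.89 and 11.98 in Cd-treated lungs, against 11.78, 11.75 and 11.72 in control lungs and the groups overlapped. Its other probe set had a mean of 3.29, so that the 2 probe sets of this gene disagree, and the high value was not taken as the level of the receptor's transcript. Vmn1r159 was at 7.56, 8.39 and 8.96 in Cd-treated lungs, against 8.52, 8.53 and 6.93 in control lungs, and Vmn1r2 at 7.42, 7.10 and 7.82 in Cd-treated lungs, against 7.68, 7.58 and 6.55 in control lungs. Both were lowest on control replicate 3 and overlapped between the groups.

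Among the Vmn2r genes of highest signal were Vmn2r55, Vmn2r33, Vmn2r12 and Vmn2r113. Vmn2r55 was at 6.67, 6.47 and 6.94 in Cd-treated lungs, against 6.83, 6.50 and 5.78 in control lungs. Vmn2r12 was at 5.86, 6.04 and 5.91 in Cd-treated lungs, against 6.29, 6.20 and 4.86 in control lungs. In these genes control replicate 3 was the lowest array, and the values of Vmn2r33 and Vmn2r113, which varied more between arrays, are given below with the members of largest SD.

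A subset of members swung widely between arrays of the same group. The SD over the 6 arrays was at least 0.8 for 15 members, 12 Vmn1r and 3 Vmn2r. The median SD was 0.27 for Vmn1r, 0.28 for Vmn2r and 0.28 for all genes with 1 symbol. The share of all genes at 0.8 or more was not counted, so that whether such swings are particular to the receptors cannot be said. Of the 15, 10 had a symbol that also stood in a shared probe set, 12 were lowest on control replicate 3, the other 3 were lowest on Cd replicate 1, 13 were highest on Cd replicate 3, and the groups overlapped in each. Vmn1r129 swung most, at 3.56, 7.26 and 7.33 in Cd-treated lungs, against 7.07, 6.90 and 4.14 in control lungs. Vmn1r148 was at 4.59, 6.40 and 6.82 in Cd-treated lungs, against 6.47, 6.10 and 3.44 in control lungs.

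The same arrays were low in other members of these clusters. Vmn1r103 was at 6.13, 7.61 and 8.0 in Cd-treated lungs, against 7.68, 7.77 and 4.74 in control lungs. Vmn1r127, whose window is printed above, was at 6.74, 7.48 and 8.41 in Cd-treated lungs, against 7.54, 7.61 and 5.03 in control lungs. In all 4 of these Vmn1r genes Cd replicate 1 and control replicate 3 lay below the other 4 arrays.

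Vmn2r33 was at 5.34, 6.37 and 7.18 in Cd-treated lungs, against 6.20, 6.42 and 4.54 in control lungs. Vmn2r45, of the same cluster, was at 4.65, 5.53 and 6.34 in Cd-treated lungs, against 6.02, 5.23 and 4.20 in control lungs. Vmn2r113 was at 4.66, 5.96 and 7.24 in Cd-treated lungs, against 6.03, 6.65 and 4.57 in control lungs. It had 4 probe sets, and the other 3 had means of 3.72, 3.18 and 3.18, and 2 of them held the same values. The mean of the spermatid and multicopy sex chromosome genes given above was lowest on the same arrays, control replicate 3 and Cd replicate 1, and highest on Cd replicate 3. Of the 8 measured, 7 were lowest on control replicate 3 and 5 were highest on Cd replicate 3. Sly, a multicopy gene of the Y chromosome, swung most, at 4.37, 6.68 and 9.18 in Cd-treated lungs, against 7.0, 6.19 and 2.72 in control lungs. Prm1, a spermatid gene, varied little, at 4.661, 4.785 and 4.882 in Cd-treated lungs, against 4.562, 4.51 and 4.799 in control lungs. The part of these genes in the receptors' values was not tested.

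**Figure D4:**
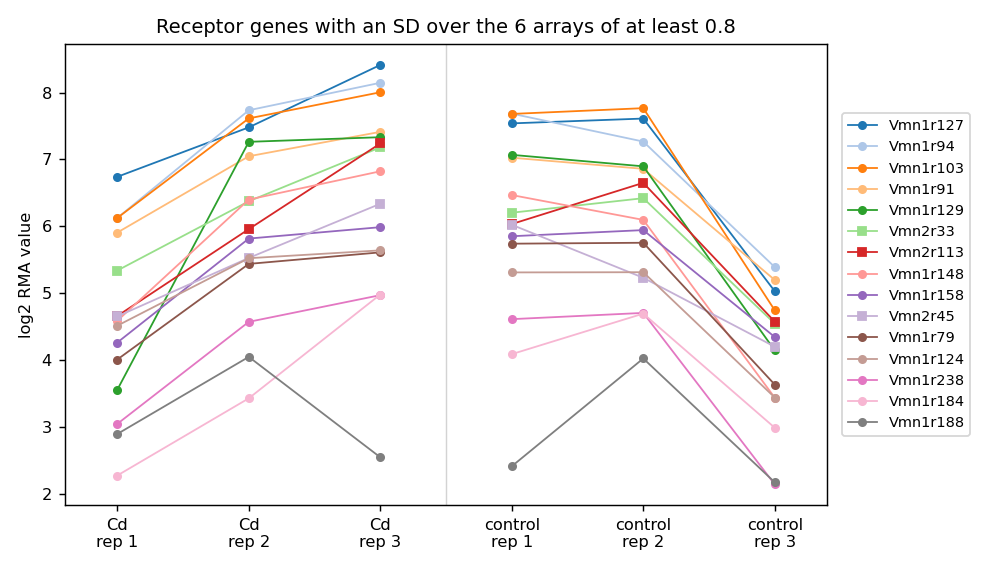
Log2 RMA value on each array of the 15 receptor genes with an SD over the 6 arrays of at least 0.8 (circles Vmn1r, squares Vmn2r), Cd-treated replicates left. Lines join values of 1 gene within a group and stand for no order of the replicates, and control replicate 3 is the lowest array in 12 of the 15.

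Sharing of probe sets followed the clusters. The 16 Vmn1r genes that lie between Vmn1r91 and Vmn1r129 in RefSeq order all had a symbol in a shared probe set. Their mean was 4.23, 5.09 and 5.35 in Cd-treated lungs, against 5.02, 5.09 and 3.72 in control lungs, with a median SD over the arrays of 0.61. Of the 12 Vmn2r genes between Vmn2r29 and Vmn2r52, 11 did, and their mean was 3.56, 3.86 and 4.50 in Cd-treated lungs, against 4.07, 3.99 and 3.25 in control lungs, with a median SD of 0.52. By contrast, the 33 Vmn1r genes between Vmn1r188 and Vmn1r223, of which 2 were in shared probe sets, had means of 2.71, 2.74 and 2.83 in Cd-treated lungs, against 2.68, 2.81 and 2.61 in control lungs.

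The fold changes of the clusters did not follow this division throughout. The mean log2 fold change was 0.28 for Vmn1r91 to Vmn1r129 and 0.20 for Vmn2r29 to Vmn2r52, both with every member over an unadjusted p of 0.05. It was 0.06 for Vmn1r188 to Vmn1r223, 0.10 for the 28 genes of Vmn1r4 to Vmn1r31, 0.10 for the 24 of Vmn1r66 to Vmn1r89, 0.09 for the 23 of Vmn1r148 to Vmn1r183, of which 7 were in shared probe sets, and -0.004 for the 9 of Vmn1r55 to Vmn1r65. Among Vmn2r clusters, the 21 genes of Vmn2r90 to Vmn2r110, where Vmn2r93 lies, had a mean of -0.05 with 9 positive, and the 8 of Vmn2r19 to Vmn2r27 had -0.04 with 2 positive. Clusters with 0 members in shared probe sets reached like values, with 0.16 for the 15 genes of Vmn1r40 to Vmn1r54, 0.15 for the 4 of Vmn2r53 to Vmn2r56, 0.29 for the 4 of Vmn2r80 to Vmn2r83 and 0.40 for Vmn1r2 and Vmn1r3. No cluster was tested as a set.

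By V1R clade, as RefSeq synonyms give it for 120 of the Vmn1r genes, mean log2 fold changes lay between 0.007 for the 2 genes of V1rj and 0.24 for the 1 gene of V1rk. The larger clades were V1rc (31 genes, 0.07), V1rh (18 genes, 0.07), V1rd (16 genes, 0.04), V1re (13 genes, 0.09) and V1rg (11 genes, 0.14). The 56 genes without a clade name had 0.15, and 25 of the 27 Vmn1r genes in shared probe sets were among them.

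Identity of the start windows gave a like picture for Vmn1r. The 53 Vmn1r genes with a window at least 90% identical to another member's had a median SD over the 6 arrays of 0.41 and a median level of 3.46, and 21 of them were in shared probe sets. The 101 others had a median SD of 0.24 and a median level of 2.88, and 5 were. In Vmn2r the median SD was 0.27 for the 58 genes with a close copy and 0.29 for the 46 without, so that no such division was seen there.

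The probe sets that carry several receptor symbols swung further than the members. There were 28 that named only Vmn1r genes, which held 20 different sets of values because 16 had the same values as another, and 8 that named only Vmn2r genes. The mean of the Vmn1r ones was 4.99, 6.54 and 6.70 in Cd-treated lungs, against 6.43, 6.34 and 4.28 in control lungs. That of the Vmn2r ones was 4.28, 5.19 and 5.64 in Cd-treated lungs, against 5.20, 5.14 and 4.04 in control lungs. Of the 28, 27 had a positive log2 fold change, with a mean of 0.39, and 0 had an unadjusted limma p under 0.05. Of all genes, 47.2% had a positive value and 1.19% such a p, and of genes under the lower quartile 65.2% were positive. The means and counts were taken over all 28, so that repeated values entered more than once. The probe sets of a family share sequence, and are not separate measurements of it.

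**Figure D5:**
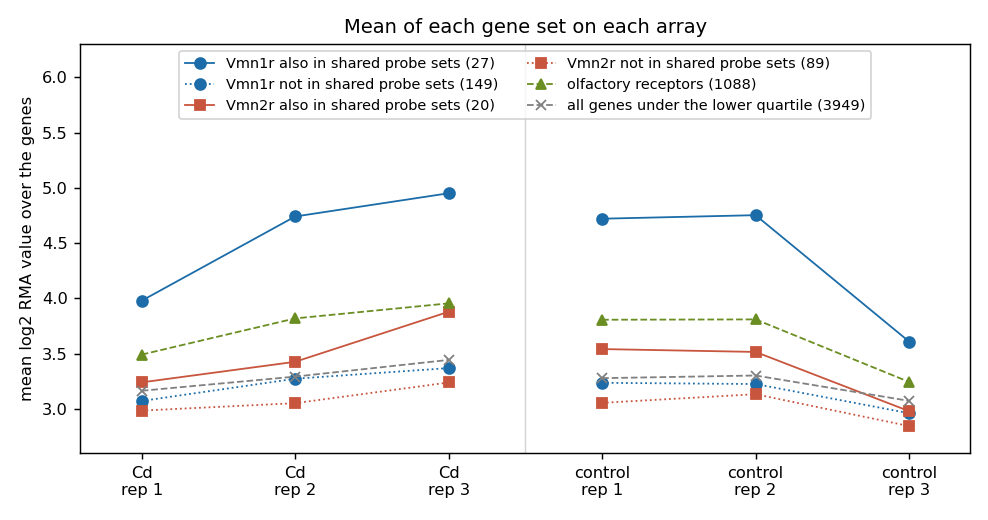
Mean log2 RMA value on each array of receptor genes that are also in shared probe sets (solid) or not (dotted), of olfactory receptor genes and of all genes under the lower quartile, Cd-treated replicates left; lines stand for no order. The 27 Vmn1r genes in shared probe sets run between 3.61 and 4.95, and the 149 others between 2.96 and 3.37.

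Receptors with a known ligand or role were near the bottom of the range. Vmn2r116, the receptor of the male pheromone peptide Esp1, was at 2.18, 2.11 and 1.81 in Cd-treated lungs, against 1.91, 2.20 and 1.90 in control lungs. Vmn2r26, which responds to peptides bound by MHC class I molecules, was at 3.72, 3.72 and 3.85 in Cd-treated lungs, against 3.81, 4.0 and 2.65 in control lungs. The groups overlapped in both.

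Vmn2r88, a receptor for hemoglobin, was at 3.39, 3.21 and 3.32 in Cd-treated lungs, against 3.10, 3.25 and 3.37 in control lungs. Vmn2r65, a receptor that pup cues activate, was at 2.14, 2.37 and 2.34 in Cd-treated lungs, against 2.09, 2.41 and 1.94 in control lungs. Neither group stood apart in these genes. Vmn1r85, which responds to sulfated steroids, was at 2.91, 2.55 and 3.09 in Cd-treated lungs, against 2.92, 2.94 and 2.84 in control lungs. Vmn1r89, its relative in the V1rj clade, was at 3.22, 3.93 and 3.62 in Cd-treated lungs, against 3.94, 3.53 and 3.11 in control lungs, with overlap again.

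The genes Vmn2r1 to Vmn2r7 encode the family of V2R receptors that is broadly expressed in basal neurons together with other V2Rs. Their mean over the 7 genes was 2.93, 3.32 and 3.37 in Cd-treated lungs, against 3.04, 3.35 and 2.64 in control lungs. Vmn2r3 had the highest signal of them, at 4.28, 4.81 and 5.04 in Cd-treated lungs, against 4.45, 4.86 and 3.78 in control lungs. Of the 7, 6 had a positive log2 fold change, 0 had an unadjusted limma p under 0.05, and the groups overlapped in all 7.

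Genes that work beside the receptors were followed in a list of 45, of which 41 were measured. Of these, 1 was higher (2.44%) and 0 lower in Cd-treated lungs at an unadjusted limma p under 0.05, against 0.564% higher and 0.622% lower of all genes. The median log2 fold change was 0.09, but it was -0.0070 after quantile normalization again, -0.0243 with the filter on low values, 0.0164 after cyclic loess and 0.0213 with array weights. Trpc2, the channel that both kinds of vomeronasal neuron need, was at 5.21, 5.06 and 5.08 in Cd-treated lungs, against 5.14, 5.08 and 5.21 in control lungs, with overlap. Gnai2 was at 7.82, 7.50 and 6.76 in Cd-treated lungs, against 7.83, 7.46 and 8.14 in control lungs, and Gnao1 at 5.59, 5.75 and 5.57 in Cd-treated lungs, against 5.60, 5.97 and 6.34 in control lungs. Both G protein subunits are also used by many cells outside the nose.

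The member past the threshold was H2-M10.5, a nonclassical MHC class I gene expressed with V2R receptors in basal neurons. It was at 2.96, 3.04 and 3.02 in Cd-treated lungs, against 2.56, 2.54 and 2.22 in control lungs, with no overlap (log2 fold change 0.57, standard error 0.19, limma p = 0.018, exact permutation p = 0.1), and without Cd replicate 2 its limma p was 0.0586. H2-M10.2, of the same gene family and also without overlap, was at 4.24, 4.21 and 4.39 in Cd-treated lungs, against 3.70, 4.15 and 3.92 in control lungs (log2 fold change 0.36, limma p = 0.111, exact permutation p = 0.1). Omp, the olfactory marker protein of mature chemosensory neurons, was at 5.14, 5.05 and 4.91 in Cd-treated lungs, against 4.53, 4.85 and 4.30 in control lungs. Its groups did not overlap either (log2 fold change 0.48, limma p = 0.0576, exact permutation p = 0.1). Tfap2e, a transcription factor of basal vomeronasal neurons, was at 5.13, 5.51 and 5.43 in Cd-treated lungs, against 5.17, 4.90 and 4.84 in control lungs (log2 fold change 0.39, limma p = 0.0956, exact permutation p = 0.2).

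Of 30 pheromone carriers and peptides 26 were measured, and 2 were higher (7.69%) and 0 lower at an unadjusted limma p under 0.05, against 0.564% higher and 0.622% lower of all genes, with a median log2 fold change of 0.11. Esp18, of the exocrine gland-secreted peptides that V2R receptors detect, was at 3.78, 3.92 and 4.57 in Cd-treated lungs, against 3.15, 3.09 and 3.13 in control lungs, with no overlap (log2 fold change 0.97, standard error 0.25, limma p = 0.00558, exact permutation p = 0.1). Lcn3, a lipocalin secreted in the nose, was at 3.88, 3.59 and 3.62 in Cd-treated lungs, against 3.44, 3.16 and 2.98 in control lungs (log2 fold change 0.50, limma p = 0.0441, exact permutation p = 0.1). With any single array but control replicate 1 left out, the limma p of Lcn3 was between 0.067 and 0.124, and it was also over 0.05 after either normalization, with the replicate number as a block and with array weights, where its log2 fold change was 0.21. Most of these values were near or below the lower quartile of the arrays. Mup5, a major urinary protein, was at 3.54, 4.70 and 4.58 in Cd-treated lungs, against 3.61, 3.94 and 2.84 in control lungs (log2 fold change 0.81, limma p = 0.0854, exact permutation p = 0.3). Esp4, another such peptide, was below control on every Cd-treated array, at 2.15, 2.28 and 2.23 in Cd-treated lungs, against 2.66, 2.44 and 2.43 in control lungs (log2 fold change -0.29, limma p = 0.141, exact permutation p = 0.1).

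The vomeronasal receptors were set beside other receptor families. The 1088 olfactory receptor genes, also with a single coding exon, had a mean log2 fold change of 0.13, and without control replicate 3 that mean was -0.05. At an unadjusted limma p under 0.05, 14 were higher and 2 lower (1.47% in all). Of all genes, 0.564% were higher and 0.622% lower (1.19% in all). In 61 olfactory receptors every Cd-treated array was above every control array and in 10 below (6.53% in all), against 3.81% above and 3.33% below of all genes. The median level of the olfactory receptors was 3.50. The 3949 genes under the lower quartile also leaned upward, with 223 above and 76 below (7.57% in all). Of those, 32 were higher and 9 lower at that threshold (1.04% in all). The excess upward was therefore not particular to the olfactory receptors. The mean level of the olfactory receptors was 3.49, 3.82 and 3.96 in Cd-treated lungs, against 3.81, 3.81 and 3.25 in control lungs, lowest on control replicate 3 as in both vomeronasal families. The 35 bitter taste receptors had a mean log2 fold change of 0.06 and the 14 trace amine receptors 0.08, with 0 past the threshold in either. The 18 measured of 19 other class C receptors, which like Vmn2r genes have several exons, had 0.007, also with 0 past the threshold. Their median level was 4.70, and the differences between these families were not tested.

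In the printed windows and their like, short motifs were counted on both strands. TATAAA stood in 39.6% of Vmn1r, 25% of Vmn2r and 14.0% of all other windows. CCCNNGGG, the core of the site of the Ebf factors that act in chemosensory neurons, stood in 0.649% of Vmn1r windows (1 of 154), 12.5% of Vmn2r windows and 13.5% of all others, and TAATTA, a core of homeodomain sites, in 9.09% of Vmn1r, 19.2% of Vmn2r and 5.24% of all other windows. TATAAA and TAATTA can overlap by their end letters, CCCNNGGG and TAATTA read the same on both strands. The median GC content given above is lower in both families than in the other windows. These are counts of letters in 1 window for each gene and were set against no value of the arrays. The gene start was an ATG in 131 of 154 Vmn1r and 91 of 104 Vmn2r windows, but in 1603 of 26767 others. The shares therefore compare windows that are placed differently along their genes.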

How the data were processed

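Affymetrix Mouse Gene ST 2.0 arrays measured lung RNA in 3 Cd-treated and 3 control mice. The deposited values are log2 RMA values, which the authors made from the scanned arrays with the R package oligo by correcting the background, normalizing between arrays by quantiles and median polish of the probes. RMA and limma appear without versions in the submitters' processing notes, and no genome build is given in the sources used here. Symbols came from the array annotation, which pairs 23521 of 41345 probe sets with 1 symbol, 1820 with several and 16004 with none. RefSeq gave spans, synonyms, order and start windows, and clusters were split at gaps over 1000000 bases.

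With limma 3.58.1 in R 4.3.3, group was fitted as the single term over all probe sets, and p-values had a Benjamini-Hochberg adjustment over all of them. The prior added 3.06 degrees of freedom. The steps were tested on simulated arrays. Calls were counted at an unadjusted p of 0.05, and families and lists were described by counts, means and medians with no test. Members and lists were chosen with earlier results of these data known. Named members were those with an unadjusted p under 0.05 and no overlap, the next 5 by p in each family, the 4 with the highest mean, the 3 with the largest SD and those with a known ligand or role. Of each other list up to 4 by p were named, with Trpc2, Omp, Gnai2 and Gnao1 always. The non-overlapping members, Sly and Prm1 were named after their values were seen. Alternatives were quantile and cyclic loess normalization applied again, each array left out, the replicate number as a block, array weights, the methods' t-test, a trended and robust prior, a filter on low values, averaging the probe sets of each gene, probe sets with several symbols, and members in no shared probe set. The number of arrays limits the precision.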

Additional observations from a re-analysis of the deposited data

How the results depend on the processing

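Of all 41345 probe sets, 831 had an unadjusted limma p under 0.05, against 607 to 1650 with 1 array left out, 449 with the replicate block, 537 with the filter on low values and 10119 with array weights, where 903 also had an adjusted p under 0.05. The count was 901 under quantile normalization, 932 under cyclic loess, 863 with the trended and robust prior and 1086 under the methods' t-test. The receptor counts below are out of 176 Vmn1r and 109 Vmn2r genes. They were not tested against these counts of all probe sets, and are not a result about the receptors. The weights rested mostly on Cd replicate 2 (6.41) and control replicate 1 (5.93), against 0.23 to 0.604 for the others. For Vmn1r genes the count of 0 became 1 under quantile normalization, cyclic loess and the trended and robust prior, 2 under the methods' t-test, 45 with array weights and 0 to 4 with 1 array left out. For Vmn2r genes the count of 1 became 0 with the replicate block and with the filter, 2 with the trended and robust prior, 3 under the methods' t-test, 32 with array weights and 0 to 3 with 1 array left out. The mean log2 fold change lay between -0.0213 and 0.227 for Vmn1r, between -0.00412 and 0.166 for Vmn2r and between -0.0382 and 0.0608 for their difference when 1 array was left out, below 0 without control replicate 3 in all of them (-0.0213 for Vmn1r, -0.00412 for Vmn2r, -0.0171 for the difference) and for the difference also without Cd replicate 2 (-0.0382), and it was -0.00999 for Vmn2r with array weights. The mean for olfactory receptors was -0.0537 to 0.266, the lower end without control replicate 3. The median of the signalling list was -0.0070 under quantile normalization, 0.0164 under cyclic loess, 0.0213 with array weights, -0.0243 with the filter and 0.0188 to 0.0803 with 1 array left out. The median of the ligand list was -0.0656 with array weights, and the log2 fold change of Vmn2r110 was 0.0855 there. The filter left 39 of 176 Vmn1r and 18 of 109 Vmn2r genes, with mean log2 fold changes of 0.254 and 0.226. Over all members of Vmn1r and Vmn2r these means were 0.0668 and 0.0518 under quantile normalization, and 0.0826 and 0.0603 under cyclic loess. The cause of these changes was not tested. With the mean of all probe sets, Vmn1r233 stood at 7.54 and Vmn2r113 at 3.98. Members in no shared probe set, an alternative chosen after seeing the data, kept the direction of both family means and of their difference. Same-numbered arrays did not deviate together from their group means (correlations of -0.49, 0.07 and -0.51). With 3 arrays in a group, such correlations cannot decide whether the numbers pair the arrays, and the labels do not say. With the replicate block the limma p was 0.0898 for Vmn2r93, 0.0674 for H2-M10.5 and 0.0878 for Lcn3. Lcn3 also had 0.0891 under quantile normalization, 0.075 under cyclic loess and 0.0971 with array weights.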
